A study of Mus musculus with 4 samples.

Results

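Meis regions were described around 3 zinc finger genes of the limb bud, Sall1, Sall4 and Zbtb16, in the ChIP-seq peak lists of forelimb (FL) and hindlimb (HL) buds. The members were chosen by position alone, as the summits inside a window around each gene in the mouse genome mm9. The windows were 90.9 to 92.2 Mb of chromosome 8 for Sall1 (about 91.55 Mb), 168.2 to 168.9 Mb of chromosome 2 for Sall4 (about 168.57 Mb) and 48.2 to 48.9 Mb of chromosome 9 for Zbtb16 (about 48.46 to 48.64 Mb). They held 86 of the 22906 FL summits and 64 of the 17810 HL summits, or 150 of 40716 in all.

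The series holds 4 libraries from wild-type C57BL/6 embryos at E10.5 (36 somites), with 1 ChIP and 1 input library for FL buds and the same for HL buds. Each limb was a pool of about 500 buds, and the chromatin was precipitated with a pair of antibodies applied together, one against all Meis1 isoforms and one against Meis1a and Meis2a,c. With 1 ChIP library per limb there was no replicate error, so FLs and HLs were not tested against each other. The pooled buds hold several cell types, and occupancy in fewer cells cannot be told apart from lower occupancy in each cell. Peak lists hold no transcript levels, so neither the expression of the 3 genes nor the labelled tissue could be checked against markers.

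Meis1 and Meis2 are homeodomain transcription factors of the TALE class, which bind DNA alone or together with Pbx and Hox proteins. In the limb bud they mark the proximal part, and much of their binding lies far from gene starts. Sall1 and Sall4 encode spalt-type zinc finger transcription factors, and mutations in the human genes cause syndromes with malformed thumbs and radial limb elements. Zbtb16, also known as Plzf, encodes a transcriptional repressor with a BTB domain and a row of zinc fingers, and its loss in the mouse alters skeletal patterning of the HL.

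The peak lists use mm9, and no mm9 sequence was used here, so the bases under the peaks are not printed. Promoters are known only from RefSeq in GRCm38.p6, whose coordinates were not set against those of the peaks. The RefSeq promoter table held 3 start sites for Sall1, 0 for Sall4 and 0 for Zbtb16. The 250 bases before the most upstream Sall1 start, on the minus strand at chr8:89044163-89044412 of GRCm38.p6, are shown because only Sall1 had a start site there.
Sall1 promoter: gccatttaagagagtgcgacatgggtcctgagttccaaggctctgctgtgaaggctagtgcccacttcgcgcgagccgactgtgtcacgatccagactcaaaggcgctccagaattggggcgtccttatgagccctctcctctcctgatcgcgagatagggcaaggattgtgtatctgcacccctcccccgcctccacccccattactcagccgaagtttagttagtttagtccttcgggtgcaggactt
No base is in capitals, because capitals would mark one of the motifs searched. These were TGACAG (the Meis hexamer), TGATTGA and TGATTTA (the first 7 letters of Hox-Pbx octamers) and AGGTGT (the core of the T-box site), on both strands, and none of these motifs contains another. The hexamer TGACAG was in 19.2% of all 32851 RefSeq promoter windows of 300 bp, TGATTGA in 2.7%, TGATTTA in 2.97% and AGGTGT in 13.7%. The 3 Sall1 windows of that length held 0 matches to any of them.

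A region was counted once however many summits it held, and took the best fold, p and q among them. The fold is the ChIP signal over the local input background at the summit, and the fold, p and q are the authors' own values. In FLs the windows held 29 regions at Sall1, 32 at Sall4 and 19 at Zbtb16, and in HLs 27, 27 and 8. Of the FL regions, 6 at Sall1, 6 at Sall4 and 4 at Zbtb16 had a q of at most 0.05, or 20% of all 80, against 17.4% of all 21338 FL regions. Of the HL regions, 1 at Sall1, 2 at Sall4 and 2 at Zbtb16 had such a q, or 8.06% of all 62, against 10.1% of all 16987. The share of regions past the q cutoff was thus near that of the whole list in both limbs. At a looser cutoff, a p of at most 0.0005, 28 of the 80 FL members passed, where 31.7% of the whole FL list did. Of the 62 HL members 20 passed, where 37% of the whole HL list did. A fold of at least 5 was found for 7 of the 80 FL and 2 of the 62 HL members, where the whole lists had 7.67% and 4.67%. The median fold of the members was 2.71 in FLs and 2.67 in HLs, where both whole lists had 2.78.

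What set the windows beside the whole lists was the number of regions per length. The FL regions came to 22.3 per Mb at Sall1, 45.7 at Sall4 and 27.1 at Zbtb16, and to 8.11 per Mb over the whole list. In HLs the windows held 20.8, 38.6 and 11.4 regions per Mb, against 6.46 over the whole list and 8.08, 8.57 and 7.09 over those chromosomes. Counting only regions with a q of at most 0.05, the FL windows held 4.62, 8.57 and 5.71 per Mb, against 1.42 over the whole list. Their chromosomes held 1.79, 1.59 and 1.37. The HL windows held 0.769, 2.86 and 2.86, against 0.654 over the whole list and 0.825, 0.804 and 0.621 over the chromosomes. The Sall1 window in HLs, with its single region past the cutoff, was the one place where this density was close to that of the whole list. It was below that of chromosome 8. The lengths of the chromosomes were taken as the highest end in either list. The windows had been drawn around limb genes with earlier results of these data known, so these densities are a description and were not tested.

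**Figure D1:**
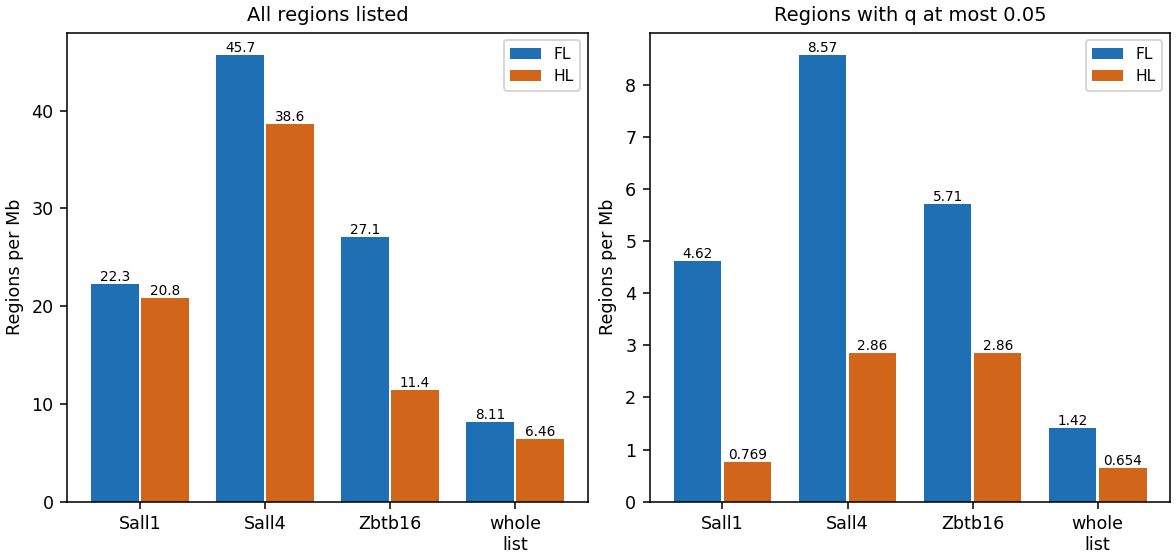
Number of Meis regions per Mb (vertical axes) in the Sall1, Sall4 and Zbtb16 windows and over the whole list, for FLs (blue) and HLs (orange), with all regions on the left and those with a q of at most 0.05 on the right. Bars are values of 1 library per limb without error. The Sall4 window was the densest in FLs with 45.7 regions per Mb, and the Sall1 window in HLs held 0.769 regions past the q cutoff per Mb, near the 0.654 of the whole list.

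Zbtb16 carried the highest fold of the 3 windows, and its binding lay within the gene. Of the 19 FL regions of the window, 15 had their summit inside the span of the gene given above, and so did 6 of the 8 HL regions. All 4 FL regions and both HL regions with a q of at most 0.05 were among them. Inside the span the density was 83.3 regions per Mb in FLs and 33.3 in HLs, and in the rest of the window it was 7.69 and 3.85. The rest of the window was thus below the 8.11 and 6.46 per Mb of the whole lists. Zbtb16 is on the minus strand and spans 184 kb in RefSeq, so its 5′ end is at the higher coordinate. Positions relative to the genes are given to the nearest 10 kb, and exons and introns of mm9 were not used here. For Sall1 and Sall4 they count from the single approximate position given above. Which part of the gene that position marks was not determined, and the length of the gene was not taken into account. In RefSeq order the neighbouring genes are Nnmt on the 3′ side and Gm32280 and Htr3a on the 5′ side.

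The highest FL region at Zbtb16 ran from 48565978 to 48566580, about 70 kb inside the gene from its 5′ end. It had a fold of 10.8 (q = 3.93e-22) and ranked 118 among all FL regions by fold. The HL region over it, from 48566057 to 48566566, had a highest fold of 4.83 and a lowest q of 6.35e-05, and ranked 889. The FL fold was higher by 1.16 on the log2 scale, and 3.33% of the 1200 pairs of the lists with a q of at most 0.05 in both limbs had a ratio of FL to HL as large. The HL region was split into summits 157 bp apart, with folds of 4.31 (q = 6.35e-05) at 48566191 and 4.83 (q = 7.31e-04) at 48566348. The FL region held a single summit, at 48566221, which lay between them.

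Right beside it, the order of the limbs was turned around. An FL region from 48565685 to 48565871 had a fold of only 2.97 (q = 0.815), above the cutoff in q, while the HL region over it, from 48565651 to 48565935, had a fold of 4.61 (q = 0.00247). It was the only one of the 22 shared pairs in the 3 windows where HLs passed the cutoff and FLs did not. In the whole lists 363 of the 4813 pairs were of that kind. Further into the same group, FL regions with folds of 3.88 (q = 0.0659) at 48568818 and 4.25 (q = 0.00931) at 48569509 had no HL region over them. The group thus counted 4 FL regions within 3.72 kb and 3 HL regions within 0.952 kb. A region absent from a list lies beyond the loose p cutoff of the peak calling, of which the highest p listed was 0.022 in FLs and 0.0217 in HLs, and it cannot be read as a place without signal.

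The second Zbtb16 site was about 140 kb inside the gene from the 5′ end. Its FL region, from 48502738 to 48503162, had a fold of 7.83 (q = 1.18e-10, rank 399), and the HL region over it had a fold of 3.37 (q = 0.0638). This log2 ratio of 1.22 was the largest among the shared pairs of the 3 windows, and 4.01% of all 4813 pairs had a ratio as large. The pair passed the q cutoff in FLs only, and the 1293 such pairs of the lists had a median log2 ratio of 0.67. A neighbour 1.82 kb away again went in the opposite direction, with a fold of 2.71 (q = 1.0) in FLs and 3.8 (q = 0.108) in HLs. Of the sites past the q cutoff in FLs, the one nearest the 5′ end was about 10 kb inside the gene. Its folds were close, at 3.76 (q = 0.00823) in FLs from 48630951 to 48631316 and 3.39 (q = 0.218) in HLs, which did not pass the cutoff. The FL and HL summits of that site were 11 bp apart. An FL region at 48604803, between these sites, had a fold of 3.79 that narrowly missed the cutoff (q = 0.0523), with no HL region over it.

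**Figure D2:**
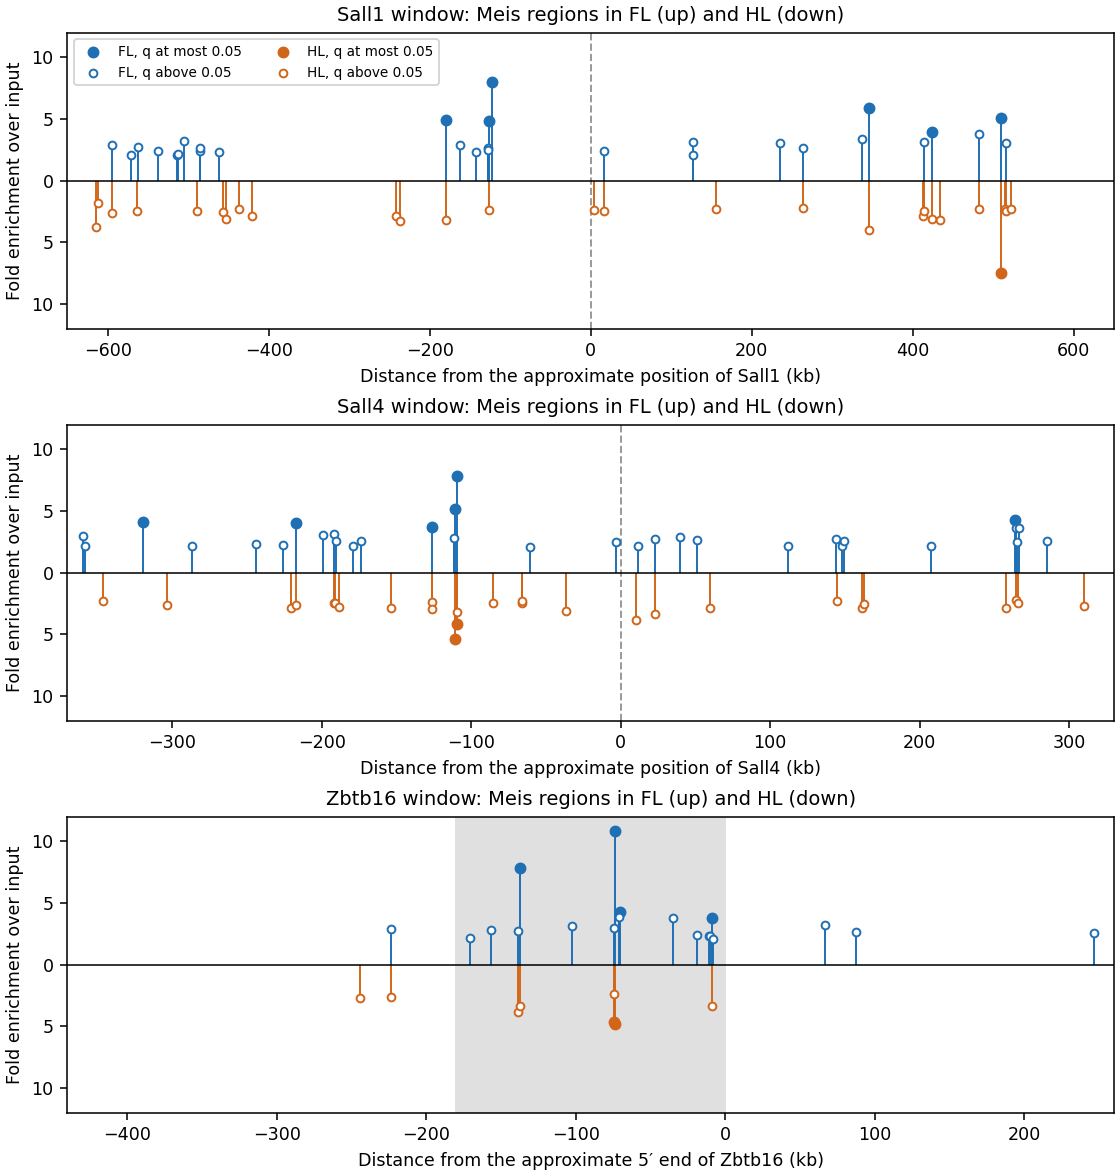
Fold enrichment over input (vertical axes) of every Meis region in the 3 windows against the distance of its summit in kb from the approximate position of Sall1 or Sall4 or the 5′ end of Zbtb16 (horizontal axes), with FL regions upward in blue and HL regions downward in orange. Filled points have a q of at most 0.05, the dashed lines mark the position of Sall1 and Sall4, and the grey band marks the span of Zbtb16. The filled points of Zbtb16 all lie in the band, up to a fold of 10.8, whereas those of Sall1 and Sall4 lie about 110 kb or more from the dashed lines.

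Sall4 had the densest window, and its strongest sites formed a pair about 110 kb from the gene on its 3′ side. Sall4 is on the minus strand with a RefSeq length of 18.9 kb, and the next genes in RefSeq order are Atp9a and Nfatc2 on the 3′ side and Zfp64 on the 5′ side. Which of these genes a summit falls in was not determined. The higher FL region of the pair, from 168460377 to 168460955, had a fold of 7.82 (q = 6.01e-12, rank 407). It held a summit with that fold at 168460610 and another with a fold of 3.86 (q = 0.0232) 168 bp away. In HLs the same stretch was listed as separate regions, one from 168460554 to 168460689 with a fold of 4.15 (q = 0.0149) and one from 168460237 to 168460475 with a fold of 3.16 (q = 1.0). The summit of the former was 19 bp from the main FL summit, and the log2 ratio of FL to HL was 0.92.

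The other site of the pair, 1.4 kb away, had nearly equal folds. It had a fold of 5.14 (q = 2.21e-05) in FLs from 168459129 to 168459388 and 5.37 (q = 2.14e-05) in HLs from 168459052 to 168459373. The log2 ratio was -0.06 and the summits were 15 bp apart. This was the highest HL region of the Sall4 window, with rank 640 in its list, whereas the FL region ranked 1493. The order of the pair was therefore not the same in FLs and HLs.

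The other 4 FL regions at Sall4 with a q of at most 0.05 were lower. A region about 130 kb on the 3′ side had a fold of 3.68 (q = 0.00207) in FLs and 2.97 (q = 1.0) in HLs, and one about 220 kb on that side had 4.03 (q = 0.0143) and 2.65 (q = 1.0). FL regions at 168250481, with a fold of 4.11 (q = 0.00931), and at 168833955, with a fold of 4.30 (q = 0.0206), had no HL region over them. The latter was the highest of 4 FL regions within 2.42 kb, about 260 kb on the 5′ side, of which its neighbours reached folds of 2.49 to 3.59. Close to Sall4 itself, 3 FL and 2 HL regions lay within 30 kb of its position, and none passed the q cutoff. The HL region at 168580233 had a fold of 3.8 (q = 0.386) with no FL region over it. A pair about 20 kb from that position towards the 5′ side had folds of 2.71 (q = 0.256) in FLs and 3.33 (q = 0.169) in HLs. Whether this pair lies inside Sall4, at its 5′ end or beyond it was not determined.

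At Sall1 the highest sites of the limbs were in different places, 633 kb apart. Sall1 is on the minus strand with a RefSeq length of 16.9 kb, next to Cyld and Nod2 on the 3′ side and to Tox3 on the 5′ side. The highest FL region, from 91427015 to 91427513, was about 120 kb on the 3′ side and had a fold of 8.02 (q = 2.79e-12, rank 368). No HL region overlapped it, and the nearest HL summit was 4.12 kb away. Of the 368 FL regions with a fold at least as high, 17 had no HL region over them (4.62%). The highest HL region of the window, from 92059681 to 92060172 and about 510 kb on the 5′ side, had a fold of 7.48 (q = 9.14e-10, rank 189). The FL region over it, from 92059742 to 92060079, had a fold of 5.04 (q = 1.53e-06), with summits 5 bp apart.

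This distal place was the highest HL region of all 3 windows and the only shared pair at Sall1 with the higher fold in HLs. The log2 ratio was -0.57, and 6.42% of the 1200 pairs with a q of at most 0.05 in both limbs were as far to the side of HLs. It was also the only HL region in the Sall1 window with such a q. The remaining 4 FL regions past the cutoff all had an HL region over them that was lower and did not pass it. About 180 kb on the 3′ side the folds were 4.93 (q = 9.18e-06) in FLs and 3.15 (q = 0.925) in HLs. About 130 kb on that side they were 4.83 (q = 3.21e-04) and 2.37 (q = 1.0), a log2 ratio of 1.03. About 350 kb on the 5′ side they were 5.89 (q = 9.78e-06) and 4.03 (q = 0.0806), and about 420 kb on the 5′ side 3.95 (q = 0.00488) and 3.07 (q = 1.0).

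Among the other HL regions of the window, the highest of those without an FL region over them were lower. They had folds of 3.75 (q = 0.0944) at 90935503, about 610 kb on the 3′ side, 3.29 (q = 0.725) at 91312792 and 3.21 (q = 1.0) at 91983466.

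Few regions lay near the gene itself. Within 100 kb of the Sall1 position there was 1 FL region with a fold of 2.43 and there were 2 HL regions with folds of 2.34 and 2.43, all with a q of 1. Shared regions lay mostly on the 5′ side, which held 7 of the 9 shared FL regions. On that side 58.3% of the 12 FL regions overlapped an HL region, against 11.8% of the 17 on the 3′ side and 22.6% of all FL regions. The shares of the sides rest on few regions, and their difference was not tested. Of the 3′ regions, 10 FL regions lay below the longest empty stretch of the window, which ran over 282 kb from 91088182 to 91370090 in FLs. The longest stretch without an HL summit was 180.0 kb, from 91128653 to 91308301, and lay inside it.

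**Figure D3:**
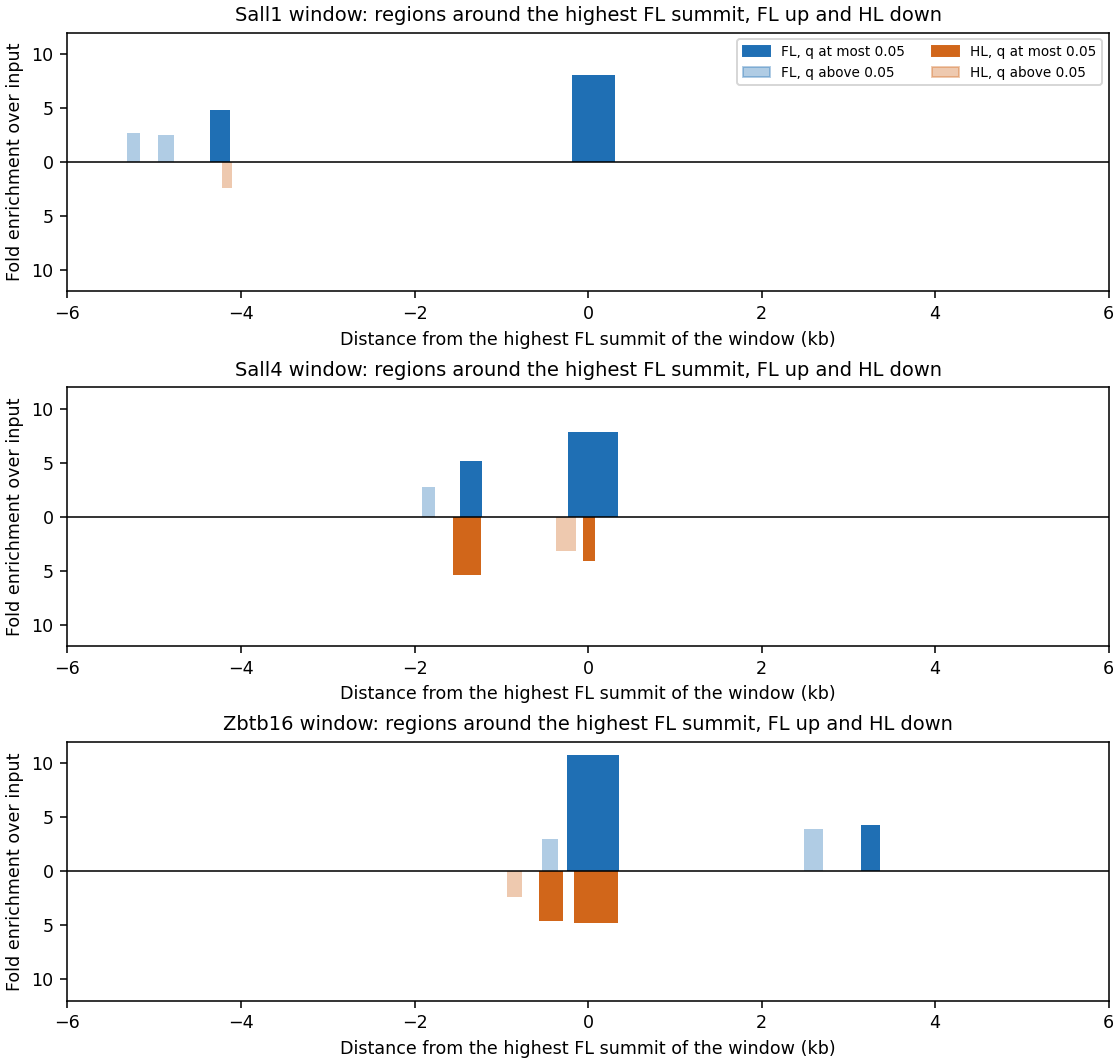
Regions within 6 kb of the highest FL summit of each window, drawn as bars from the start to the end of the region (horizontal axes, kb from that summit) with the fold enrichment over input as height (vertical axes), FL upward in blue and HL downward in orange, pale where the q is above 0.05. No HL bar lies under the highest FL region at Sall1 (fold 8.02), while at Sall4 and Zbtb16 HL regions with folds of 4.15 and 4.83 lie under those of 7.82 and 10.8.

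Across the windows, 22 FL regions overlapped an HL region by at least 1 bp, that is, 27.5% (95% Wilson interval 18.9 to 38.1%), against 22.6% of all FL regions. In the other direction it was 23 HL regions, 37.1% (26.2 to 49.5%), against 29% of all HL regions. These intervals cover counting error only, and both hold the value of the whole list. By window, 9 FL regions were shared at Sall1, 7 at Sall4 and 6 at Zbtb16. At Zbtb16, 6 of the 8 HL regions were shared (75.0%, 40.9 to 92.9%), the largest share of the 3 windows. Of the 16 FL regions with a q of at most 0.05, 12 overlapped an HL region, where 67% of all such FL regions did. All 5 HL regions with such a q overlapped an FL region, where 89.3% of all such HL regions did.

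The fold was higher in FLs in 8 of 9 pairs at Sall1, 5 of 7 at Sall4 and 4 of 6 at Zbtb16, or 77.3% of the 22 pairs, against 62.1% of all 4813 pairs of the lists. The median log2 ratio of FL to HL was 0.36 at Sall1, 0.31 at Sall4 and 0.14 at Zbtb16. Over the 3 windows it was 0.34, with a 95% confidence interval of 0.04 to 0.69 that held the 0.17 of all pairs. The interval at Sall1 was 0.25 to 0.69. With 7 and 6 pairs, the intervals at Sall4 (-0.3 to 0.92) and Zbtb16 (-0.63 to 1.22) were the whole range of the ratios. The pairs are places in 1 library per limb and not replicates. The intervals therefore hold no replicate error, and no window was tested against the lists. The medians also depended on which pairs were taken. At Sall4 the median was -0.18 over the 2 pairs that overlapped by at least 50% of both regions, and at Zbtb16 it was 0.65 over the 4 pairs with a q of at most 0.05 in at least 1 limb. The ratios at Zbtb16 ranged widely, from -0.63 to 1.22, whereas those at Sall1 ran from 0.25 to 1.03 apart from the distal place at -0.57. A q of at most 0.05 in both limbs was found for 4 pairs (24.9% of all pairs of the lists had it), in FLs only for 8, in HLs only for 1 and in neither for 9. Of all 4813 pairs, 1293 had such a q in FLs only, 363 in HLs only and 1957 in neither.

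**Figure D4:**
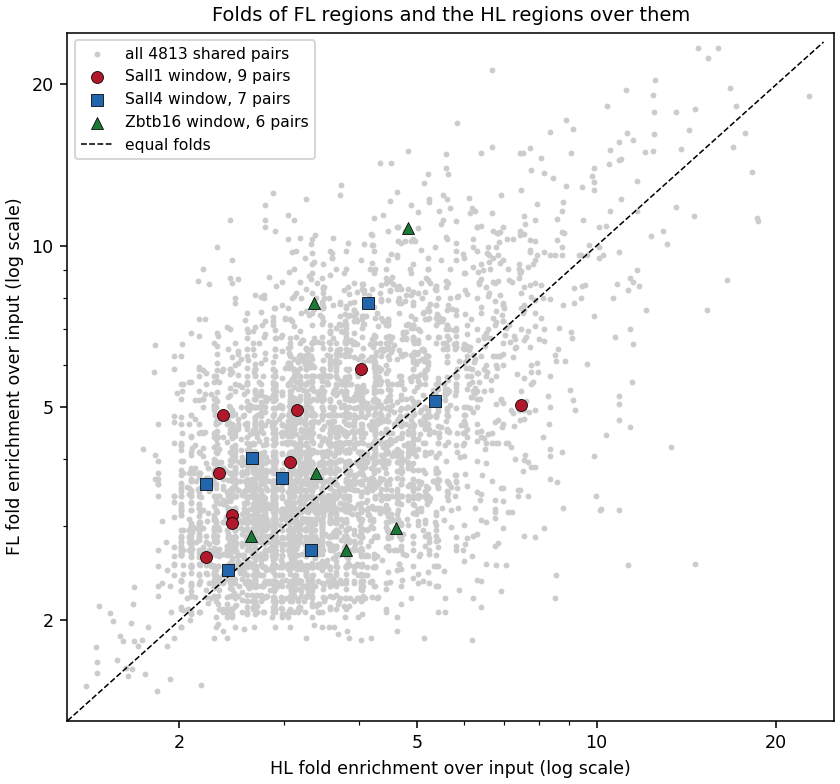
Fold enrichment of each shared FL region (vertical axis, log scale) against that of the HL region of the highest fold over it (horizontal axis, log scale), with the 22 pairs of the Sall1, Sall4 and Zbtb16 windows in colour over all 4813 pairs of the lists in grey, and equal folds as a dashed line. Of the coloured pairs, 17 lie above the line, and the Sall1 pair farthest below it has folds of 5.04 in FLs and 7.48 in HLs.

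The positions of shared summits were close. The distance between the FL summit and the HL summit had a median of 32.0 bp over the 22 pairs and ranged from 5 to 183 bp, and 18 pairs (81.8%) had it within 100 bp, against 85.5% of all pairs. Across the pairs, Spearman's rho between the FL and HL folds was 0.51 (n = 22), against 0.43 over all pairs. All pairs share the same pair of libraries and their inputs, and pairs of neighbouring regions are not independent.

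Regions past the q cutoff were wider than the rest. Their median width was 348.0 bp in FLs and 322.0 bp in HLs, against 150 and 129.0 bp for the other regions of the windows. In the whole lists the same widths were 292.0 and 274.0 bp against 153.0 and 126.0 bp. More than 1 summit was found in 6 of the 80 FL and 2 of the 62 HL regions, where 6.14% of all FL and 4.15% of all HL regions had them. The distance between their summits ranged from 157 to 267 bp. Of the members, 45.0% of the FL regions had another FL region within 5 kb, against 31.8% of all FL regions, and 51.6% of the HL regions had another HL region as near, against 27.9%. In all 3 windows and both limbs, the highest region was part of such a group of neighbours. No such share was computed for comparably high regions of the whole lists. The windows also held more regions per Mb than the lists, and whether neighbours were more common than at that density was not tested. The largest groups of the windows held 4 regions in FLs and 3 in HLs, a size reached by 213 groups in the whole FL list and 455 in the whole HL list.

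Most members were weak. A q of 1 was given for 66.2% of the FL and 77.4% of the HL members, where the whole lists had 68.8 and 78.8%. Weak summits share their values with many others, and 96.3% of all FL and 96.4% of all HL summits had the same fold and p as at least one other summit of the list. The FL regions at 90955818 (Sall1) and 48416633 (Zbtb16), for example, each had a fold of 2.88, as part of 1059 FL summits with that fold and p. The highest FL region of the Sall1 window and both FL regions of the strong Sall4 pair had a combination of fold and p found at no other FL summit. Uniqueness did not follow strength, however. The highest FL region at Zbtb16, with a fold of 10.8, shared its values within a set of 2 FL summits. That with a fold of 7.83 did so within a set of 6. A lower Sall4 region at 168353060, with a fold of 4.03, was unique.

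The edges of the windows cut through low regions. The members nearest to an edge had folds from 2.29 to 3.75, and the nearest regions outside had folds from 2.01 to 3.8, none of them with a q of at most 0.05. In FLs the nearest summit outside was 3.06 kb from the lower edge of the Sall4 window, with a fold of 3.65 (q = 0.0752), and 258.0 kb from the lower edge of the Zbtb16 window. Above the Zbtb16 gene the HL list held no summit up to 133.0 kb past the upper edge of the window.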

How the data were processed

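Meis ChIP and input DNA of FL and HL buds were sequenced with 50-base single-end reads, and the 2 ChIP libraries had peak lists. Per the study's methods and the submitters' processing notes, the authors trimmed reads with cutadapt 1.3, aligned them to mm9 with BWA and called peaks with MACS2 against the input of the same limb, without pooling. The deposited lists give, for each summit, the fold enrichment (a ratio of ChIP to local background), the −log10 p and −log10 q, a score made from the p that was not used here, and the distance of the summit from the start. The lists themselves hold no read counts. The study states read totals for the libraries, which were not used here, so no limit of detection per region was computed.

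Rows with the same start and end were merged into 1 region. FL and HL regions were shared if they overlapped by at least 1 bp, and each FL region was paired with the overlapping HL region of the highest fold. Regions with a q of at most 0.05 were counted against the whole list. Wilson intervals (95%) cover counting error only. The 95% intervals of medians were taken from the ordered ratios of the pairs, and with few pairs they are the whole range. Named regions were the 5 highest by fold per window and limb, shared pairs with such a q in both limbs, and regions with such a q and no partner. Other regions were named after their values were seen. The windows and lists were chosen with earlier results of these data known. Gene order, strand and promoters came from RefSeq for GRCm38.p6, without converting coordinates. The overlap code was tested on simulated regions. Tables were made in Python 3.11.15 (pandas 2.3.3, with numpy 2.4.6), intervals with scipy 1.17.1 and figures with matplotlib 3.10.9. Alternatives were other cutoffs, overlap rules, list lengths and narrower windows.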

Additional observations from a re-analysis of the deposited data

How the results depend on the processing

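Counts of regions past a cutoff moved with the cutoff, and counts of shared regions with the overlap rule. Over the 3 windows together, the FL windows kept more regions past each cutoff than the HL windows. The whole lists had the same order, with 3722 FL against 1721 HL regions at a q of at most 0.05. At a p of at most 0.0005 they had 6773 against 6291. In the order Sall1, Sall4, Zbtb16 and all 3 windows, the FL counts of 6, 6, 4 and 16 became 11, 10, 7 and 28 at a p of at most 0.0005, and 3, 2, 2 and 7 when a fold of at least 5 was also asked. The HL counts of 1, 2, 2 and 5 became 8, 7, 5 and 20 at that p. With the fold cutoff they were 1 at Sall4, 0 at Zbtb16 and 2 in all, and a q of at most 0.01 left 1 at Sall4. In windows of the same centre and 50% of the length, FLs had 3 at Sall1, 3 at Sall4 and 10 in all, and HLs had 0 at Sall1.

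Shared FL regions (9, 7, 6 and 22) fell to 5, 2 and 11 for Sall1, Sall4 and all 3 when at least 50% of both regions had to overlap, to 5, 4, 3 and 12 among regions with a q of at most 0.05, and to 3, 4 and 13 for Sall1, Sall4 and all 3 in the narrower windows. Shared HL regions (9, 8, 6 and 23) fell to 5, 2 and 11, to 1, 2, 2 and 5, and to 3, 5 and 14 in the same settings. These settings ask for more overlap or use fewer regions by construction. The median log2 ratio of FL to HL at Sall4 turned from 0.31 to -0.18 with the 50% overlap, which left 2 pairs there. The other 11 of 12 values of the ratio kept their sign, but some moved by over 1.5 times. Among pairs with a q of at most 0.05 in at least 1 limb the median was 0.65 at Zbtb16 (4 pairs, against 0.14), 0.55 at Sall1 (against 0.36) and 0.55 over the 3 windows (against 0.34), and with the 50% overlap it was 0.33 at Zbtb16. Among the other results, 20 of 40 counts past a cutoff and 20 of 40 counts of shared regions stayed within 1.5 times the main count.

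No paired analysis was possible because each limb had 1 ChIP library. No library was left out, as none has a replicate. The lists hold no read counts, and a region absent from a list is known only to lie beyond the cutoff of the peak calling.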
